A study of Homo sapiens with 18 samples.

Results

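Heat shock proteins and chaperonins are the proteins that fold, refold and assemble other proteins, and 81 genes of the counts table, out of 58815, carry a symbol of these families. They were taken by symbol alone: the HSPA, HSPB, HSPD, HSPE and HSPH genes, HSP90AA1, HSP90AB1 and HSP90B1, the DNAJA, DNAJB and DNAJC genes and the 8 TRiC subunit genes, TCP1 and CCT2 to CCT8 with CCT6A for CCT6. The 81 genes hold 80 symbols, because HSPA14 is listed under 2 gene identifiers. The RNA came from 3 cell lines, LM2, BrM3 and BoM, which are derivatives of the triple-negative breast cancer line MDA-MB-231 that were selected in mice for growth in lung, brain and bone (the brain derivative is BrM3 in the study, BrM in the sample titles and BrM2 in their cell line field). Every group carried a DOX-inducible hairpin introduced by lentivirus, and every group, the controls included, received DOX at 1 μg/mL for 3 days. In shCtrl groups the hairpin was a control, and in shWDR5 groups it was shWDR5-1, a single hairpin against WDR5, a WD40-repeat protein of several chromatin complexes. The infected cells were selected with a drug and used as a population. Each line and hairpin has 3 replicates, taken at different passages, which gives 6 groups and 18 libraries, and p-values measure the spread between these cultures.

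The families work as a relay. HSP70 proteins bind exposed stretches of unfolded chains in a cycle driven by ATP, J-domain proteins (DNAJA, DNAJB and DNAJC) deliver chains and trigger the ATP step, and HSP110 proteins exchange the nucleotide. HSP90 takes later folding intermediates such as kinases and hormone receptors, small HSPs hold unfolded proteins without ATP, and chaperonins enclose a single chain in a barrel. The cytosolic barrel, TRiC, is built from 8 different subunits that are each needed, and it is best known for folding actin and tubulin. In mitochondria the barrel is HSPD1 with its lid HSPE1. Tumour lines, MDA-MB-231 among them, are known for high levels of HSP90 and HSC70 (HSPA8) without heat stress.

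Total counts ranged from 17485841 to 119667013 per library (median 37861544), and the 81 genes took 1.709% to 2.767% of them. Levels are given as CPM, the read count scaled by library size with TMM factors, so they are relative to the rest of the measured mRNA. TMM factors were 0.935 to 1.0056 in shWDR5 libraries and 0.9947 to 1.0503 in shCtrl libraries. WDR5 itself was at 125 ± 11.1 CPM in LM2 shCtrl and 23.1 ± 2.25 CPM in LM2 shWDR5 (SD, n = 3 libraries each), at 86.1 ± 6.95 and 21.9 ± 1.42 CPM in BrM3, and at 89.4 ± 1.71 and 19.0 ± 4.40 CPM in BoM. The labels call the cells breast epithelial. The keratins KRT8 and KRT18 were at 194 to 501 CPM, VIM at 1494 to 2231 CPM and EPCAM at 4.39 to 10.1 CPM, whereas CDH1, a defining gene of epithelium, did not exceed 0.601 CPM. Of the 4 epithelial markers tested 1 was called down in BrM3 and 3 in BoM (EPCAM in both), and none up within a line. With the 3 lines averaged, 3 of the 4 were called down and 1 up, where 19.9% and 15.6% of all genes were. The sum of the 5 listed overlapped between hairpins in BrM3 and BoM (631 to 858 CPM in BoM shCtrl and 563 to 638 CPM in BoM shWDR5) and in LM2 (609 to 776 and 772 to 795 CPM). None of the 4 mesenchymal markers was called by edgeR in a line, 1 having an unadjusted p under 0.05 in LM2 and 0 in BrM3 and BoM, and their sum was higher with shWDR5 without overlap in LM2 (3135 to 3466 and 3924 to 3950 CPM) and in BrM3 (2682 to 2827 and 2841 to 3207 CPM) and overlapped in BoM. With the 3 lines averaged, 1 of these 4 was called up. The leukocyte markers PTPRC, CD3E and CD68 summed to at most 1.11 CPM. Of the 3 endothelial markers, PECAM1 was called up in LM2, where their sum was 2.42 to 2.80 CPM with shCtrl and 3.63 to 5.35 CPM with shWDR5. The part of these markers in the results was not tested. In bulk libraries, a lower level in all cells and a loss from some of the cells cannot be told apart.

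Heat shock genes are best known for the element that binds the heat shock factor HSF1 before their start, and the windows that hold it are shown because their genes include the HSP90, HSC70 and mitochondrial barrel genes described further on. In the 250 bases before a RefSeq start (GRCh38.p14), available for 70 members, the heat shock element, searched on both strands as GAA, TTC and GAA with any 2 bases between them, stood in 6 members, which is 8.57%, against 0.557% of 27305 genes. Where a gene had several RefSeq starts, a match before any of them counted. Each window below has 30 bases, is written 5′ to 3′ on the strand of its gene, and has the element in capitals.
HSP90AB1, chr6:44247770-44247799, plus strand: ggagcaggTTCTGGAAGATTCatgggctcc
HSP90AA1, chr14:102087111-102087140, minus strand: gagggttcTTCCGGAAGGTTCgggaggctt
HSPA8, chr11:123062345-123062374, minus strand: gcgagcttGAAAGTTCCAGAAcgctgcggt
HSPD1, chr2:197500061-197500090, minus strand: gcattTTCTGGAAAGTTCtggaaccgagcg
DNAJB6, chr7:157336865-157336894, plus strand: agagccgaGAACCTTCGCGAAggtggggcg
HSPA6, chr1:161524458-161524487, plus strand: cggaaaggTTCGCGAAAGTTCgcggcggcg

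The E-box CACGTG, a palindrome, stood in 8 of the 70 members (11.4%), among them HSPA9, HSPD1 and HSPE1, and in 7.73% of all genes. HSPD1 and HSPE1 lie head to head, and their window is the same stretch read on opposite strands. The HSPD1 E-box begins 88 bases before 1 RefSeq start, and the HSPD1 heat shock element printed above begins 245 bases before another. That heat shock element therefore lies downstream of the start used for the E-box, inside the gene as read from there. The endoplasmic reticulum stress element searched on both strands as CCAAT and CCACG with any 9 bases between them, includes the CCAAT box by construction and stood in HSPA5 and HSP90B1 (2.86% of members against 0.0916% of all genes). CCAAT itself (ATTGG on the other strand) stood in 42.9% of members and 37% of all genes, and the TATA box TATAAA in 17.1% and 13%. A match is a description of the letters and not of a bound site. The windows below have the E-box or the stress element in capitals.
HSPA9, chr5:138575403-138575432, minus strand: cgcccctcacccCACGTGgttggaggtttc
HSPD1, chr2:197500345-197500374, minus strand: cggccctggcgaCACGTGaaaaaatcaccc
HSPE1, chr2:197500345-197500374, plus strand: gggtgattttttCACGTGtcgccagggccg
HSPA5, chr9:125241385-125241414, minus strand: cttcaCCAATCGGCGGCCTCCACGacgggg
HSP90B1, chr12:103930211-103930240, plus strand: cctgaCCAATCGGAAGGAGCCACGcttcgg

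Of the 81 genes, 65 passed the filter on low counts, a highest normalised count above 139.7, among 12160 genes in all. Fold changes are given on the log2 scale with their standard error (SE). Within each line shWDR5 was compared with shCtrl by edgeR's quasi-likelihood test, and genes with a Benjamini-Hochberg adjusted p under 0.05 over all 12160 genes were called. In LM2, 4 members rose and 6 fell, where 6.29% of all tested genes were called, 1.49% up and 4.8% down. In BrM3, 9 rose and 9 fell (10.9% of all genes, 2.92% up and 7.96% down), and in BoM 7 rose and 10 fell (16.2% of all genes, 5.41% up and 10.8% down). As shares of the 65, LM2 had 6.15% up and 9.23% down, BrM3 13.8% up and 13.8% down, and BoM 10.8% up and 15.4% down. When the log2 fold changes of the 3 lines were averaged and tested as 1 contrast, 19 members rose and 11 fell, 29.2% and 16.9% of the 65, where 15.6% and 19.9% of all genes did, 35.5% in all. HSPA2 and HSPB8, both called down, passed the filter through shCtrl libraries alone (BrM3 for HSPA2 and BoM for HSPB8), so their direction was favoured by the filter.

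These counts rest on few libraries. Over the 18 fits that each left out 1 library, 0 to 5 members rose in LM2, 3 to 11 in BrM3 and 3 to 11 in BoM, whereas 5 to 7, 6 to 11 and 8 to 11 fell. LM2 had 5 calls, all down, without shCtrl replicate 2, shCtrl replicate 3, shWDR5 replicate 1 or shWDR5 replicate 2. Over all genes, LM2 calls in those fits went from 181 up and 584 down to 63 to 78 up and 313 to 353 down. BrM3 went from 18 calls to 11 without any 1 of its shCtrl replicates and to 9 without shWDR5 replicate 3, and BoM from 17 to 11 without shWDR5 replicate 2. All-gene calls in those BrM3 fits went from 355 up and 968 down to 117 to 152 up and 601 to 650 down. In that BoM fit they went from 658 up and 1309 down to 457 up and 1001 down. With an offset for GC content, 11 rose and 7 fell in LM2 (16.9% and 10.8% of tested members, 8.87% and 8.58% of all genes). The offset gave 15 up and 11 down in BrM3 (23.1% and 16.9%, against 14.5% and 11% of all genes). In BoM it gave 12 up and 11 down (18.5% and 16.9%, against 16.6% and 12.9%). In the mean of the lines it gave 25 up and 15 down (38.5% and 23.1%, against 31.4% and 20.5%). The excess of rises over all genes in the mean was smaller with the offset (38.5% against 31.4%) than without it (29.2% against 15.6%). DESeq2 gave 11 up and 10 down in BoM (8.83% and 11.5% of all genes). With the replicate number as a block, 11 rose and 11 fell in BoM (11.3% and 15% of all genes), CCT2, DNAJB2, DNAJB4, DNAJC2 and HSPA4L being the added calls. Members had a median GC content of 44.7%, and all tested genes 48%.

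**Figure D1:**
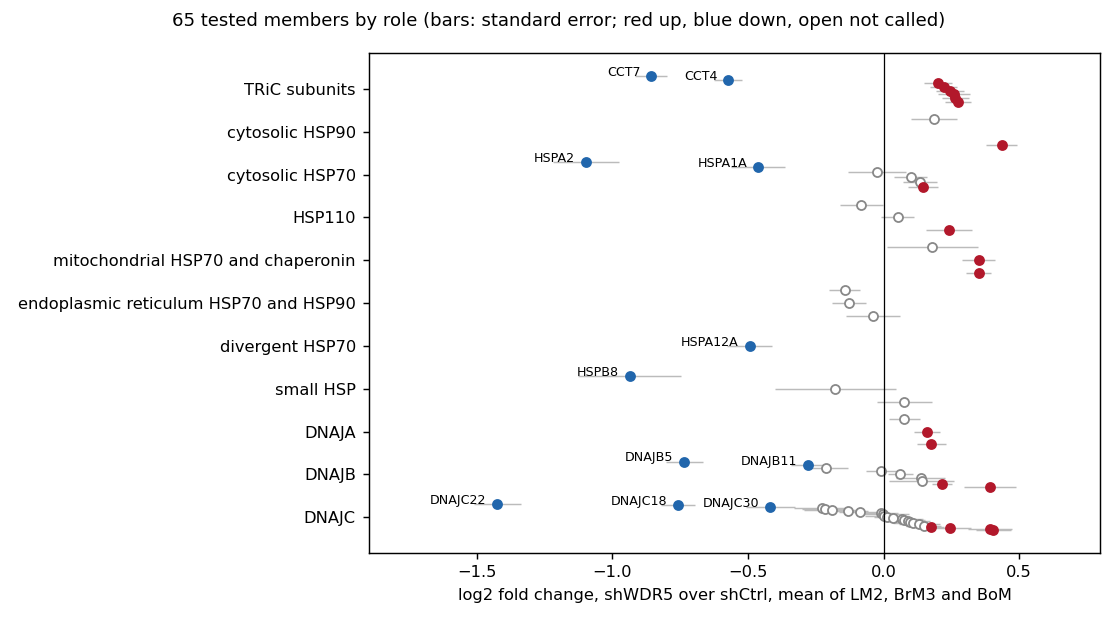
Log2 fold change of shWDR5 over shCtrl, averaged over LM2, BrM3 and BoM, for the 65 tested members by role. Points are estimates and bars standard errors, with 19 members called up (red), 11 called down (blue, named) and 35 not called (open). The falls are larger than the rises: the lowest value is -1.43 for DNAJC22 and the highest 0.44 for HSP90AB1.

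In all, 9 members were called in the same direction in each of the 3 lines. Rising were HSP90AB1, HSPA9 and DNAJC9, and falling were CCT4, CCT7, HSPA2, DNAJB5, DNAJC18 and DNAJC22. HSPA2 passed the filter through BrM3 shCtrl alone, so its fall in BrM3 was favoured by the filter. Over all tested genes 0.748% were called up and 3.26% down in all 3 lines. With the replicate block 4 members rose and 7 fell in all 3 lines, and with the GC offset 7 rose and 6 fell. Both fits also called more of all genes in each line, and their share of all genes called in all 3 lines is not given. CCT4, CCT7, DNAJB5, DNAJC18 and DNAJC22 were called down in every line in each of the 7 other fits and in each of the 18 fits without 1 library. The 3 rises were less firm: HSP90AB1 in LM2 was not called when the line was fitted alone, HSPA9 in LM2 and BrM3 was not called without the filter on low counts, both were uncalled in LM2 without shCtrl replicate 2 or 3 or shWDR5 replicate 1 or 2, and DNAJC9 lost its LM2 and BrM3 calls in both of these fits and its BrM3 and BoM calls with the GC offset.

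The TRiC subunits moved in opposite directions. CCT7 (chr2:73233420-73253021, plus strand, GRCh38, GENCODE 44), the eta subunit, was at 477, 436 and 451 CPM in LM2 shCtrl and 254, 229.6 and 237 CPM in LM2 shWDR5. It was at 588, 610.1 and 610.4 CPM in BrM3 shCtrl and 326, 360.2 and 398 CPM in BrM3 shWDR5, and at 745, 781 and 824 CPM in BoM shCtrl and 358, 490.4 and 399.8 CPM in BoM shWDR5. In each line the highest shWDR5 library lay below the lowest shCtrl library. The log2 fold change was -0.92 (SE 0.10, adjusted p = 7.7e-05) in LM2, -0.74 (SE 0.10, adjusted p = 0.00029) in BrM3 and -0.91 (SE 0.10, adjusted p = 1.8e-05) in BoM, so that the level fell by 47.2% in LM2, fell by 40% in BrM3 and fell by 46.9% in BoM. Over all alternative fits the value stayed within -0.96 to -0.89 in LM2, -0.81 to -0.67 in BrM3, and -1.05 to -0.82 in BoM. No 50-base stretch of the annotated exons of CCT7 occurs in another gene, and no antisense exon overlaps it. Its nearest divergent neighbour, PRADC1, starts 181 bases away. Lack of overlap between the hairpins was common over the 12160 tested genes, so by itself it says little about a single gene. LM2 had it upward for 10.7% and downward for 14.6% of them, BrM3 for 15.9% and 19.7%, and BoM for 12.8% and 17.3%. Of the 65 members, 12 were separated upward and 11 downward for LM2, 19 and 9 for BrM3, and 20 and 13 for BoM.

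CCT4 (chr2:61868085-61888671, minus strand), the delta subunit, was at 324, 276 and 310.1 CPM in LM2 shCtrl and 201, 184 and 198 CPM in LM2 shWDR5. It was at 389, 404 and 430.3 CPM in BrM3 shCtrl and 279.9, 287 and 298 CPM in BrM3 shWDR5, and at 465, 456 and 514 CPM in BoM shCtrl and 287, 326 and 352 CPM in BoM shWDR5. Here too the hairpin groups did not overlap in any line. The log2 fold change was -0.64 (SE 0.09, adjusted p = 0.00031) in LM2, -0.50 (SE 0.09, adjusted p = 0.0018) in BrM3 and -0.57 (SE 0.09, adjusted p = 0.00034) in BoM. Of its 50-base stretches 11.5% also occur in another gene, most of all in a gene on the other strand. This share and the overlap given next may therefore describe the same bases. Antisense exons overlap 456 bases of CCT4, and the strand setting of the counts is not given in the sources used here, so reads in that overlap could belong to either strand.

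The other 6 subunits had positive log2 fold changes in each line: TCP1 (alpha), CCT2 (beta), CCT3 (gamma), CCT5 (epsilon), CCT6A (zeta) and CCT8 (theta). None of the 6 was called in LM2, 4 were called up in BrM3 (CCT3, CCT5, CCT2 and TCP1) and 2 in BoM (CCT8 and TCP1). In the mean of the 3 lines all 6 were called up, with log2 fold changes from 0.20 for CCT6A to 0.27 for CCT3 and TCP1, and they were called there in each of the 6 other fits that give a mean and in the 18 fits without 1 library.

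TCP1 was at 301, 269 and 280.3 CPM in LM2 shCtrl and 349, 331 and 328 CPM in LM2 shWDR5. The BrM3 libraries held it at 308, 314 and 310.1 CPM with shCtrl and 390.1, 366 and 363 CPM with shWDR5, and the BoM libraries at 371, 383 and 410.3 CPM with shCtrl and 422, 515 and 507 CPM with shWDR5. The shWDR5 libraries were above the shCtrl libraries in each line. The TCP1 call in BrM3 was lost without the filter and without any 1 of 13 libraries, 6 of them from BrM3, and the call in BoM without the filter, in BoM alone, and without shCtrl replicate 1 or 2 or shWDR5 replicate 2 or 3. Its log2 fold change was 0.25 (SE 0.08, adjusted p = 0.09) in LM2, 0.26 (SE 0.08, adjusted p = 0.048) in BrM3 and 0.31 (SE 0.08, adjusted p = 0.016) in BoM. CCT3 and CCT7 had the highest levels per length over the shCtrl libraries (172 and 171 CPM per kb of exon). CCT3 was at 794, 781 and 764 CPM in BrM3 shCtrl and 893, 1022 and 1103 CPM in BrM3 shWDR5, a log2 fold change of 0.37 (SE 0.08, adjusted p = 0.0089). CCT5 was at 594, 604 and 588 CPM in BrM3 shCtrl and 762, 700.3 and 776 CPM in BrM3 shWDR5, with 0.33 (SE 0.09, adjusted p = 0.023). A lncRNA on the other strand overlaps 1734 bases of CCT5. CCT8 was at 329.7, 366 and 389.8 CPM in BoM shCtrl and 394, 504 and 467 CPM in BoM shWDR5, with 0.33 (SE 0.10, adjusted p = 0.037). CCT6A, called in no single line, was at 789, 758 and 844 CPM in BoM shCtrl and 854, 1030.0 and 947 CPM in BoM shWDR5, with 0.24 (SE 0.09, adjusted p = 0.079), and CCT2 ran from 0.12 in LM2 to 0.30 in BrM3. In BrM3 the CCT3 call was lost without shWDR5 replicate 3, the CCT5 call without any 1 shCtrl replicate or shWDR5 replicate 3, and the CCT2 call without the filter and without any 1 BrM3 library. The CCT8 call in BoM was lost without the filter, in BoM alone and without BoM shCtrl replicate 1 or 2, BoM shWDR5 replicate 2 or 3 or BrM3 shCtrl replicate 1.

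**Figure D2:**
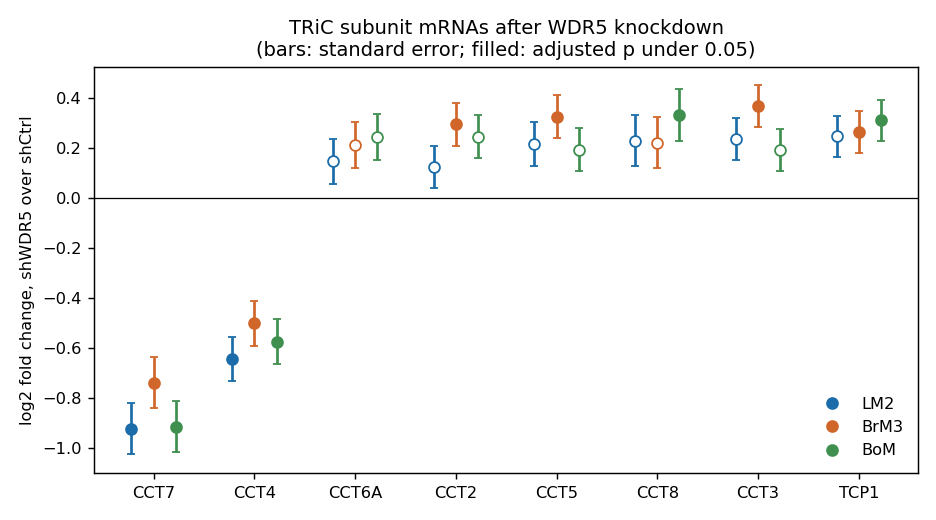
Log2 fold change of shWDR5 over shCtrl for the 8 TRiC subunits in LM2 (blue), BrM3 (orange) and BoM (green), with standard errors. Filled points were called at an adjusted p under 0.05. CCT7 and CCT4 lie between -0.92 and -0.50 in the 3 lines, and the other 6 between 0.12 and 0.37.

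The composition of the TRiC message shifted, while its sum overlapped between the hairpins in 2 of the 3 lines. Summed over the 8 subunits the level was 3140 to 3522 CPM in LM2 shCtrl and 3241 to 3545 CPM in LM2 shWDR5, and 4819 to 5167 and 4543 to 5565 CPM in BoM, overlapping in both lines. In BrM3 it was 3867 to 3961 CPM and 4099 to 4325 CPM, without overlap. Per kb of exon, CCT7 made up 15.2% ± 0.24 of the sum in LM2 shCtrl and 8.16% ± 0.19 in LM2 shWDR5 (SD, n = 3 libraries), 16.7% ± 0.3 and 9.6% ± 0.79 in BrM3, and 17.5% ± 0.4 and 9.31% ± 0.66 in BoM. For CCT4 the shCtrl and shWDR5 shares were 13.5% ± 0.5 and 8.77% ± 0.4 for LM2, 15% ± 0.54 and 10.2% ± 0.19 for BrM3, and 14.2% ± 0.33 and 9.6% ± 0.75 for BoM. TCP1, the lowest subunit in each shCtrl group by this measure, held 6.94% to 6.99% in LM2 shCtrl and 8.28% to 8.46% in LM2 shWDR5. In LM2 shWDR5 the CCT7 libraries (7.95% to 8.32%) reached into the range of TCP1. Shares of a sum are tied to each other, so the rise of the other 6 shares follows in part from the fall of these 2. The length is that of all annotated exons, which exceeds that of the main transcript by different factors in different genes.

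**Figure D3:**
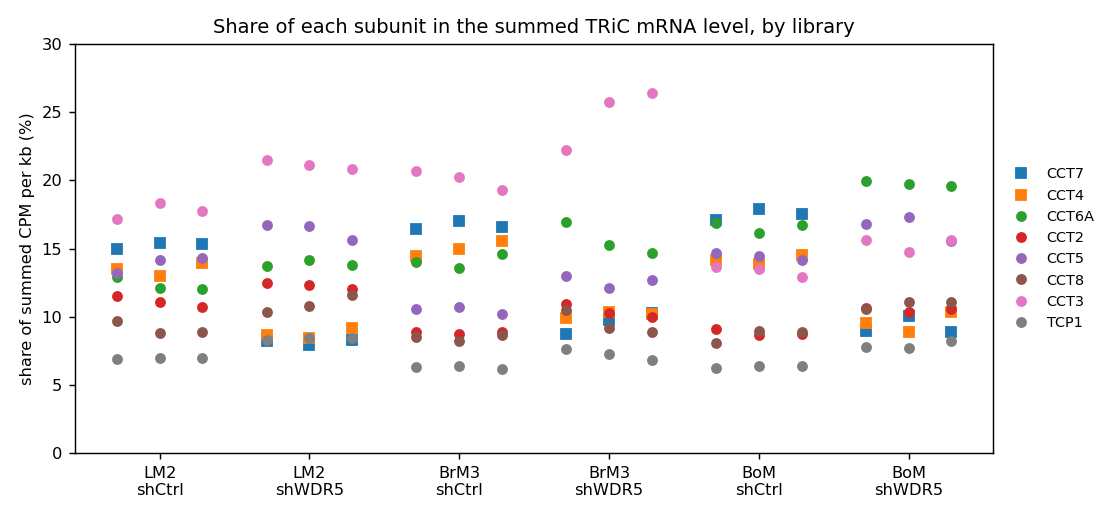
Share of each subunit in the summed TRiC level (CPM per kb of exon, in %) for each of the 18 libraries, in groups of 3 by line and hairpin. CCT7 (blue squares) and CCT4 (orange squares) sit lower in the shWDR5 libraries of every line, and each of the other 6 sits higher.

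Genes that work beside TRiC were not called in any line, with 1 exception. Prefoldin passes nascent actin and tubulin chains to TRiC, and phosducin-like proteins assist its cycle. Of 12 genes of prefoldin and TRiC cofactors tested, none was called in LM2, BrM3 or BoM by edgeR, and 0, 1 and 1 had an unadjusted p under 0.05. In the mean of the lines PDCL3, a phosducin-like cofactor chosen for mention after its value was seen, was called up at 0.21 (SE 0.06, adjusted p = 0.015). Of 15 tubulins, actins and tubulin cofactors tested, the single call within a line was the alpha tubulin TUBA1A in BoM, which fell to -0.70 (SE 0.10, adjusted p = 0.00021). In LM2, BrM3 and BoM, 4, 4 and 1 of the 15 had an unadjusted p under 0.05. In the mean of the lines 2 of the 15 were called up and 1 down, where 15.6% and 19.9% of all genes were.

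In mitochondria, HSPA9 (chr5:138553756-138575675, minus strand), or mortalin, the HSP70 that pulls proteins in and folds them, rose in each line. It was at 542, 484 and 488 CPM in LM2 shCtrl and 648, 634 and 632 CPM in LM2 shWDR5. It was at 699, 745 and 772 CPM in BrM3 shCtrl and 957, 888 and 897 CPM in BrM3 shWDR5, and at 788, 770.2 and 852 CPM in BoM shCtrl and 983, 1168 and 1050.0 CPM in BoM shWDR5, without overlap in any line. The log2 fold change was 0.34 (SE 0.08, adjusted p = 0.017) in LM2, 0.31 (SE 0.08, adjusted p = 0.02) in BrM3 and 0.41 (SE 0.08, adjusted p = 0.0023) in BoM. Its introns host SNORD63 and SNORD63B, 2 of the small RNAs annotated within members. HSPD1 (chr2:197486584-197516737, minus strand), the barrel, was at 624, 557 and 557 CPM in LM2 shCtrl and 748, 749 and 618 CPM in LM2 shWDR5, where the groups overlapped. In BrM3 it was at 796, 731 and 790.3 CPM and 1187, 922 and 963 CPM, and in BoM at 745, 748 and 844 and 926, 1095 and 980.0 CPM, both without overlap. Its log2 fold change was 0.28 (SE 0.11, adjusted p = 0.14) in LM2, 0.41 (SE 0.11, adjusted p = 0.021) in BrM3 and 0.36 (SE 0.11, adjusted p = 0.03) in BoM. The BrM3 call was lost without any 1 shCtrl replicate or shWDR5 replicate 1, and the BoM call in BoM alone and without shCtrl replicate 1 or 2 or shWDR5 replicate 2. HSPA9 lost its BrM3 call without shCtrl replicate 1 or 2 or shWDR5 replicate 3.

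HSPE1, the lid encoded beside HSPD1, ranged more widely between replicates, at 27.1, 20.5 and 15.2 CPM in LM2 shCtrl and 19.2, 24.3 and 38.9 CPM in LM2 shWDR5 and at 18.5, 21.3 and 29.8 CPM in BoM shCtrl and 23.1, 20.5 and 43.2 CPM in BoM shWDR5. Its log2 fold change was 0.39 (SE 0.29, adjusted p = 0.52) in LM2 and -0.17 (SE 0.29, adjusted p = 0.77) in BrM3, not called in any line. Summed over HSPA9, HSPD1 and HSPE1 the level was 1060 to 1194 CPM in LM2 shCtrl and 1289 to 1415 CPM in LM2 shWDR5, 1500 to 1591 and 1836 to 2168 CPM in BrM3, and 1539 to 1726 and 1931 to 2284 CPM in BoM. Among 10 tested partners in mitochondria and the endoplasmic reticulum, GRPEL1, the nucleotide exchange factor of HSPA9, was called up in BoM at 0.25 (SE 0.08, adjusted p = 0.046), and TIMM44, which tethers HSPA9 to the import channel, in BrM3 at 0.41 (SE 0.13). These 2 were the only calls of that list within a line. Each was 10% of the list, where 5.41% of all genes were called up in BoM and 2.92% in BrM3. In the mean of the lines 2 of the 10 were called up and 1 down, where 15.6% and 19.9% of all genes were.

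In the cytosol, HSP90AB1 (chr6:44246166-44253888, plus strand), the constitutive HSP90, was at 2819.7, 2544 and 2385 CPM in LM2 shCtrl and 3535, 3430.5 and 3078 CPM in LM2 shWDR5. It was at 3255, 3064 and 3291 CPM in BrM3 shCtrl and 4006, 4663 and 4783 CPM in BrM3 shWDR5, and at 4462, 4342 and 4946 CPM in BoM shCtrl and 6162, 6892 and 5689.7 CPM in BoM shWDR5. Each shWDR5 library was above each shCtrl library of its line, and the log2 fold change was 0.37 (SE 0.10, adjusted p = 0.027) in LM2, 0.49 (SE 0.10, adjusted p = 0.0038) in BrM3 and 0.45 (SE 0.10, adjusted p = 0.0046) in BoM. It had the highest level per length of all members over the shCtrl libraries (1159.9 CPM per kb), and 16.6% of its 50-base stretches also occur in other genes, most of all the pseudogene HSP90AB3P. HSP90AA1, the stress-inducible HSP90, was at 3128, 2704 and 2510.2 CPM in LM2 shCtrl and 3635, 3723 and 2752 CPM in LM2 shWDR5, with overlap, and its log2 fold change of 0.28 (SE 0.15, adjusted p = 0.32) in LM2, 0.21 in BrM3 and 0.07 in BoM was not called. Both genes hold the heat shock element printed above. Of the 5 tested members with that element, HSP90AB1, HSPA8, HSPD1 and DNAJB6 were called up in the mean of the lines and HSP90AA1 was not, where 15.6% of all genes and 29.2% of members were called up. The search took exact letters only. The heat-inducible members HSPA1A, HSPA1B and DNAJB1 had no match in it and were not called up in the mean. A link between the element and the rises was not tested. HSPA8's call was lost in 13 of the 18 fits without 1 library, and with the replicate block HSPA8 was not called and HSP90AA1 was.

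HSPA8, the constitutive HSP70 (HSC70) and the second most abundant member per length, was at 3659.6, 3142 and 3392 CPM in BrM3 shCtrl and 4010.2, 3849 and 3949.6 CPM in BrM3 shWDR5. The groups did not overlap in BrM3 but did in LM2 and BoM, and it was called in no line. In the mean of the 3 lines it was called up at 0.14 (SE 0.05, adjusted p = 0.047), a call that was lost in 2 of 6 other fits and in 13 of the 18 fits without 1 library. HSPA8 hosts SNORD14C, SNORD14D and SNORD14E. Of the 6 members that host a small nucleolar or Cajal body RNA in an intron, HSPA8, HSPA9, TCP1 and CCT6A were called up in the mean and DNAJC27 and DNAJC16 were not called, where 15.6% of all genes and 29.2% of members were called up. With the replicate block HSPA8 was not called and DNAJC16 was called down.

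HSPA2 (chr14:64535905-64546173, plus strand), an HSP70 best known from the testis, was scarce and fell. It was at 1.74, 2.46 and 3.17 CPM in LM2 shCtrl and 1.39, 1.45 and 1.52 CPM in LM2 shWDR5. It was at 3.17, 3.49 and 3.23 CPM in BrM3 shCtrl and 1.2, 1.43 and 1.87 CPM in BrM3 shWDR5, and at 2.31, 2.98 and 2.27 CPM in BoM shCtrl and 0.939, 1.01 and 0.924 CPM in BoM shWDR5. All shWDR5 libraries lay below all shCtrl libraries of their line. The log2 fold change was -0.80 (SE 0.20, adjusted p = 0.025) in LM2, -1.09 (SE 0.20, adjusted p = 0.0026) in BrM3 and -1.40 (SE 0.22, adjusted p = 0.00045) in BoM. The LM2 call was lost when LM2 was fitted alone and without shCtrl replicate 2 or 3 or shWDR5 replicate 1 or 2. Its highest normalised count, 142.6, was just above the filter, and the nearest member below the filter, HSPA1L, reached 122.7. HSPA2 passed through BrM3 shCtrl alone, so its test and lack of overlap in BrM3 are descriptive.

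HSPA1A and HSPA1B, the heat-inducible HSP70 pair, share most of their sequence, 73.7% of the 50-base stretches of HSPA1A being found in HSPA1B, so reads could be split between them. HSPA1A was at 16.8, 26.3 and 18.2 CPM in BoM shCtrl and 13.7, 11.6 and 11.2 CPM in BoM shWDR5, without overlap, a log2 fold change of -0.75 (SE 0.17, adjusted p = 0.0062). In LM2 it was -0.52 (SE 0.18, adjusted p = 0.1) and in BrM3 -0.11 (SE 0.17, adjusted p = 0.74). HSPA1B was between -0.12 and 0.08 in the 3 lines and was not called. Both HSPA14 entries were uncalled in each line.

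HSPA12A, a divergent relative of HSP70, was at 6.25, 6.4 and 6.08 CPM in BrM3 shCtrl and 4.11, 4.09 and 3.99 CPM in BrM3 shWDR5, without overlap, and fell to a log2 fold change of -0.62 (SE 0.15, adjusted p = 0.012). In BoM it fell by 0.48 (SE 0.14, adjusted p = 0.027) on the log2 scale, and in LM2 the value was -0.38 (SE 0.15, adjusted p = 0.15). Both calls were lost without the filter, the BrM3 call also without shWDR5 replicate 3 and the BoM call in BoM alone and without shCtrl replicate 1 or shWDR5 replicate 2 or 3. The nucleotide exchangers HSPA4 and HSPH1 were called in no line. HSPA4, the most abundant of that group per length, had log2 fold changes of 0.04, 0.08 and 0.03 in LM2, BrM3 and BoM, and HSPA4L was called up in the mean at 0.24 (SE 0.09, adjusted p = 0.036), a call lost in 9 of the 18 fits without 1 library.

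None of the 3 endoplasmic reticulum HSP70 and HSP90 members, HSPA5, HSP90B1 and HSPA13, was called up in any line. HSPA5, or BiP, the HSP70 of that compartment, was at 657, 626 and 669 CPM in BrM3 shCtrl and 502, 510.1 and 524 CPM in BrM3 shWDR5, without overlap, and fell to -0.35 (SE 0.10, adjusted p = 0.034). In LM2 it was at 662, 661 and 766 CPM and 687, 690.1 and 802 CPM with a log2 fold change of 0.06 (SE 0.10, adjusted p = 0.82), and in BoM the value was -0.15 (SE 0.10, adjusted p = 0.35). The BrM3 call was lost with filterByExpr, without a filter, with the GC offset, and without any 1 of the 6 BrM3 libraries. HSP90B1 and HSPA13 were called in no line, and HSP90B1 ran from -0.29 in BrM3 to -0.02 in LM2. DNAJB11, the J-domain partner of HSPA5, was at 35.3, 31.1 and 34.5 CPM in LM2 shCtrl and 27.4, 27.6 and 28.3 CPM in LM2 shWDR5, without overlap, and was called down in the mean of the lines at -0.28 (SE 0.06, adjusted p = 0.0023).

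**Figure D4:**
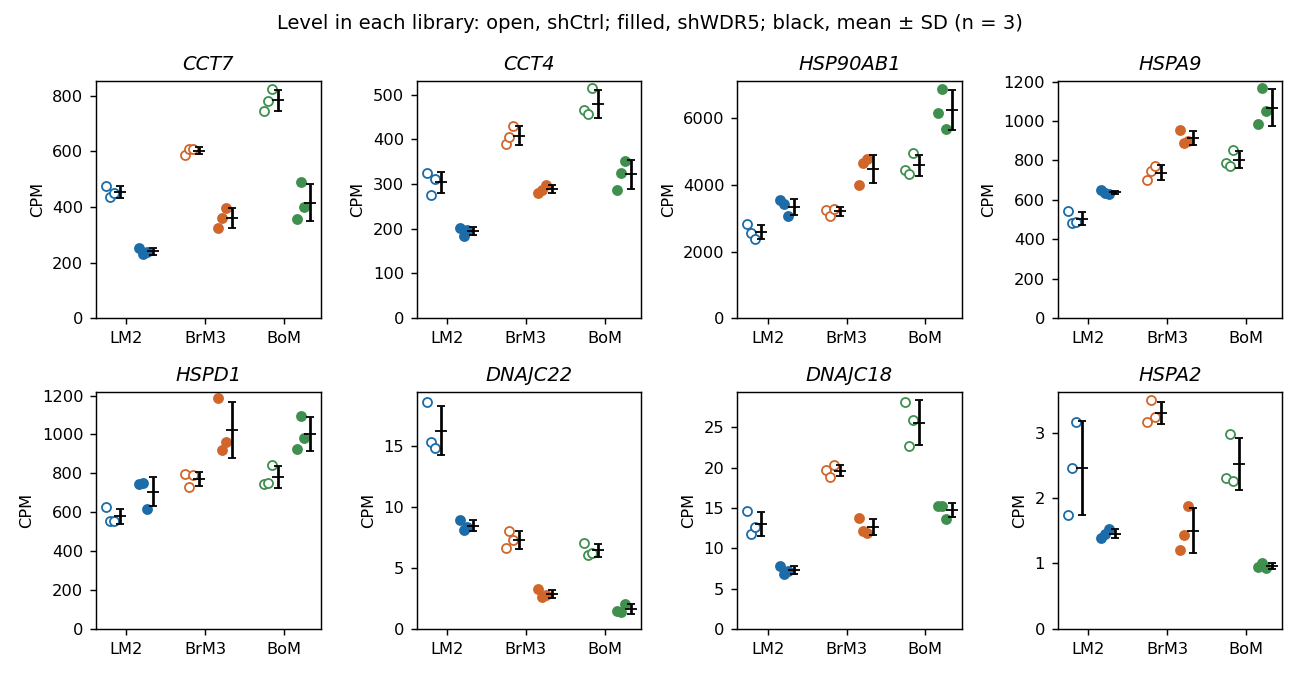
CPM of 8 members in each library, by line, for shCtrl (open) and shWDR5 (filled), with mean ± SD (n = 3) in black and each axis starting at 0. CCT7, CCT4, DNAJC22, DNAJC18 and HSPA2 are lower in all shWDR5 libraries of each line, HSP90AB1 and HSPA9 are higher, and HSPD1 overlaps in LM2.

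Among J-domain proteins, 3 fell in every line. DNAJC22 (chr12:49346888-49357546, plus strand), a membrane protein with a J domain, was at 18.6, 15.3 and 14.9 CPM in LM2 shCtrl and 8.96, 8.08 and 8.39 CPM in LM2 shWDR5. It was at 6.6, 8.04 and 7.27 CPM in BrM3 shCtrl and 3.25, 2.63 and 2.76 CPM in BrM3 shWDR5, and at 7.07, 6.06 and 6.24 CPM in BoM shCtrl and 1.45, 1.4 and 2.08 CPM in BoM shWDR5. The groups were far apart in each line, and the log2 fold change was -0.94 (SE 0.14, adjusted p = 0.0006) in LM2, -1.35 (SE 0.15, adjusted p = 4.6e-05) in BrM3 and -1.99 (SE 0.16, adjusted p = 5.5e-07) in BoM. In the mean of the lines it was -1.43 (SE 0.09, adjusted p = 5.1e-09), the lowest of the 65 members.

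DNAJC18 (chr5:139408588-139444491, minus strand), a J protein of the endoplasmic reticulum membrane, was at 14.7, 11.8 and 12.7 CPM in LM2 shCtrl and 7.8, 6.86 and 7.2 CPM in LM2 shWDR5. BrM3 libraries were at 19.7, 18.9 and 20.3 CPM with shCtrl and 13.8, 12.1 and 11.9 CPM with shWDR5, and BoM libraries at 28.2, 22.7 and 25.9 CPM and 15.3, 15.3 and 13.7 CPM. None of these groups overlapped. The log2 fold change was -0.84 (SE 0.11, adjusted p = 0.00024) in LM2, -0.64 (SE 0.11, adjusted p = 0.0013) in BrM3 and -0.79 (SE 0.11, adjusted p = 0.00012) in BoM. DNAJB5 (chr9:34989641-34998900, plus strand), a class B J protein, was at 24.8, 25.4 and 27 CPM in LM2 shCtrl and 16.4, 15.5 and 17 CPM in LM2 shWDR5. BrM3 libraries were at 17.7, 16.4 and 15.2 CPM with shCtrl and 9.36, 10.5 and 9.71 CPM with shWDR5, and BoM libraries at 18, 22.4 and 17.6 CPM and 9.47, 12.8 and 11 CPM, again without overlap. The log2 fold change was -0.66 (SE 0.12, adjusted p = 0.0023) in LM2, -0.74 (SE 0.12, adjusted p = 0.00094) in BrM3 and -0.81 (SE 0.12, adjusted p = 0.00025) in BoM.

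Rises among J-domain proteins were smaller. DNAJC9 (chr10:73183362-73247255, minus strand), which also chaperones histones H3 and H4, was at 46.6, 47.7 and 53.1 CPM in LM2 shCtrl and 61.2, 61.3 and 73.2 CPM in LM2 shWDR5. BrM3 libraries were at 46, 55 and 46.1 CPM with shCtrl and 69.5, 58.3 and 61.3 CPM with shWDR5, and BoM libraries at 46, 44.2 and 44.1 CPM and 52.7, 67.4 and 63.2 CPM. It did not overlap in any line, with log2 fold changes of 0.41 (SE 0.11, adjusted p = 0.037) in LM2, 0.36 (SE 0.11, adjusted p = 0.045) in BrM3 and 0.45 (SE 0.11, adjusted p = 0.011) in BoM. FAM149B1 lies across it on the other strand, covering 1819 bases of its exons. Of the 50-base stretches of DNAJC9, 58% also occur in other genes, most of all FAM149B1, so both figures may describe the same bases. The DNAJC9 count is uncertain without a known strand setting. Its LM2 call was lost without any 1 LM2 library, its BrM3 call without any 1 of 11 libraries and its BoM call without shWDR5 replicate 2. DNAJB6, a suppressor of protein aggregation, was at 296, 281 and 301 CPM in LM2 shCtrl and 349.9, 341 and 358 CPM in LM2 shWDR5 and at 369, 361 and 341 CPM in BrM3 shCtrl and 446, 430.2 and 429 CPM in BrM3 shWDR5, with 0.26 (SE 0.07, adjusted p = 0.026) in LM2, 0.28 (SE 0.07, adjusted p = 0.0096) in BrM3 and 0.10 (SE 0.07, adjusted p = 0.3) in BoM. Both of its calls were lost without the filter, that in LM2 also in LM2 alone and without any 1 LM2 library but shCtrl replicate 1, and that in BrM3 without shCtrl replicate 3. DNAJC6, or auxilin, which strips clathrin coats, was called up in BoM at 0.46 (SE 0.14, adjusted p = 0.032), and DNAJC30, a mitochondrial J protein, was called down there at -0.58 (SE 0.16, adjusted p = 0.021). Each of these 2 BoM calls was lost in BoM alone, that of DNAJC30 also without the filter, that of DNAJC6 without shCtrl replicate 2 or 3 or shWDR5 replicate 1 or 3, and that of DNAJC30 without shCtrl replicate 2 or shWDR5 replicate 1 or 2.

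The most abundant J proteins per length in their classes were not called in any line. DNAJA1, a main partner of HSPA8, had log2 fold changes of 0.17, 0.18 and 0.18 in LM2, BrM3 and BoM and was called up in the mean at 0.18 (SE 0.05, adjusted p = 0.018). DNAJB1, the heat-inducible HSP40, was between 0.02 and 0.10, and DNAJC8, a spliceosome-associated J protein, between -0.01 and 0.08. In the mean of the lines DNAJA2, DNAJB4, DNAJC1 and DNAJC2 were also called up, with log2 fold changes between 0.16 and 0.39.

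Small HSPs were led by HSPB1 (HSP27), whose libraries spread widely within each group. It was at 20, 36.4 and 53 CPM in LM2 shCtrl and 24.2, 26.8 and 56.8 CPM in LM2 shWDR5, with a log2 fold change of -0.05 (SE 0.38, adjusted p = 0.97), and at 29, 56.7 and 32.4 CPM in BoM shCtrl and 20.9, 30.4 and 45.5 CPM in BoM shWDR5, with -0.29 (SE 0.39, adjusted p = 0.65). The 95% interval in LM2 was -0.86 to 0.76, so that changes within it, in either direction, remain compatible with the data. With the GC offset the value in LM2 and BrM3 turned positive. HSPB8, the partner of BAG3 in clearing misfolded proteins, was at 4.31, 4.39 and 4.73 CPM in BoM shCtrl and 1.69, 2.02 and 3.04 CPM in BoM shWDR5, without overlap, and fell to a log2 fold change of -1.0 (SE 0.25, adjusted p = 0.012). HSPB8 passed the filter through BoM shCtrl alone, which favoured this fall, so its test and lack of overlap in BoM are descriptive. In BrM3 it was at 0.511, 1.03 and 0.44 CPM and 0.4, 0.2 and 0.212 CPM, with -1.40 (SE 0.39, adjusted p = 0.028), and in LM2 the value was -0.41 (SE 0.33, adjusted p = 0.56). The BrM3 call was lost when BrM3 was fitted alone and without shCtrl replicate 2, shWDR5 replicate 2 or shWDR5 replicate 3, and the BoM call without shWDR5 replicate 1. HSPB11 was not called in any line.

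The regulators of the family were not called. HSF1, HSF2, HSF4 and the inhibitor HSBP1 gave 0 calls in LM2, BrM3 and BoM by edgeR, and 0 of the 4 had an unadjusted p under 0.05 in any line. HSF1, the factor that binds heat shock elements, was at 48.0 ± 13.8 CPM in LM2 shCtrl and 57.4 ± 14.8 CPM in LM2 shWDR5 (SD, n = 3 libraries). Of 22 cochaperones of HSP70 and HSP90 tested, none was called in LM2, STIP1 and TRAP1 rose in BrM3, and BAG2 rose in BoM. The rises were 9.09% of the 22 in BrM3 and 4.55% in BoM, where 2.92% and 5.41% of all genes were called up. In LM2, BrM3 and BoM, 3, 5 and 3 of the 22 had an unadjusted p under 0.05. STIP1, which hands chains from HSP70 to HSP90, had 0.35 (SE 0.08, adjusted p = 0.0064), TRAP1, the mitochondrial HSP90, 0.43 (SE 0.12, adjusted p = 0.034), and BAG2, an HSP70 nucleotide exchanger, 0.47 (SE 0.10, adjusted p = 0.0061). These 3 are named because they were the only calls of that list within a line. In the mean of the lines 5 of the 22 were called up and 1 down, where 15.6% and 19.9% of all genes were. No gene of the 4 lists of partners was called in all 3 lines.

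Whether the response differed between lines was tested directly. Of the 65 members, 0 were called for BrM3 against LM2, BoM against LM2 or BoM against BrM3, and 1, 1 and 2 had an unadjusted p under 0.05. Over all 12160 genes 0.00822%, 0% and 0.00822% were called. The smallest p belonged to DNAJC22: its log2 fold change in BoM minus that in LM2 was -1.05 (SE 0.21, adjusted p = 0.13), with a 95% interval of -1.50 to -0.60. DESeq2 and the fit with the GC offset each called this 1 member in this comparison. In BoM minus BrM3 the difference for DNAJC22 was -0.63 (SE 0.22, adjusted p = 1), and in BrM3 minus LM2 the member with the smallest p was HSPA5, at -0.41 (SE 0.14, adjusted p = 1). For CCT7 the difference between BoM and LM2 was 0.01 with an interval of -0.30 to 0.31, and for CCT4 it was 0.07 with -0.19 to 0.33. Any 2 of these comparisons share a line.

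The lines already differed in these genes without knockdown, about as often as in all genes. Between shCtrl libraries, 21 members were higher and 9 lower in BrM3 than in LM2 (47.6% of all genes differed, 24.2% higher and 23.4% lower), 32 were higher and 5 lower in BoM than in LM2 (51.8% of all genes, 26% and 25.8%), and 21 were higher and 3 lower in BoM than in BrM3 (37.6% of all genes, 17.8% and 19.8%). As shares of the 65 the BoM figures are 49.2% and 7.69% against LM2 and 32.3% and 4.62% against BrM3. The summed level of all members was 16646 to 18323 CPM in LM2, 19159 to 20602 CPM in BrM3 and 23584 to 26208 CPM in BoM, in that order and without overlap. In shWDR5 libraries it was 18040 to 20103, 22048 to 23573 and 25455 to 29699 CPM. Each line is a single selected derivative, so its origin and its culture history cannot be told apart.

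HSPB8 passed the filter through BoM shCtrl alone, so it had to be higher there, and its levels are given as a description. It was at 0.605, 0.559 and 0.562 CPM in LM2 shCtrl, 0.511, 1.03 and 0.44 CPM in BrM3 shCtrl and 4.31, 4.39 and 4.73 CPM in BoM shCtrl. LM2 and BrM3 overlapped, and HSPB8 is one of the members counted as higher in BoM in both comparisons. HSPA1A was lowest in LM2, at 4.27, 6.93 and 6.75 CPM, against 16.8, 17.4 and 15.4 CPM in BrM3 and 16.8, 26.3 and 18.2 CPM in BoM. It was higher in BrM3 than in LM2 by 1.45 (SE 0.17, adjusted p = 2.5e-06) and in BoM than in LM2 by 1.75 (SE 0.17, adjusted p = 2.4e-07), with BrM3 and BoM overlapping. HSPA12A was at 4.35, 4.9 and 4.12 CPM in LM2, 6.25, 6.4 and 6.08 CPM in BrM3 and 13.2, 10.4 and 11 CPM in BoM, BoM exceeding LM2 by 1.38 (SE 0.14, adjusted p = 4.4e-07) and BrM3 by 0.89 (SE 0.14, adjusted p = 0.00011).

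DNAJC22 ran the other way. Its 18.6, 15.3 and 14.9 CPM in LM2 stood above the 6.6, 8.04 and 7.27 CPM in BrM3 and the 7.07, 6.06 and 6.24 CPM in BoM, with log2 differences of -1.15 (SE 0.14, adjusted p = 2.9e-06) for BrM3 against LM2 and -1.33 (SE 0.14, adjusted p = 5.9e-07) for BoM against LM2. DNAJC6 was higher in BoM than in BrM3 by 0.82 (SE 0.14, adjusted p = 0.00023), and HSPB1 was higher in BrM3 than in LM2 by 0.98 (SE 0.38, adjusted p = 0.045). Of the TRiC subunits 7 were higher in BoM than in LM2, from 0.25 for CCT2 to 1.01 for CCT6A, and CCT3 was not called. Against BrM3, CCT3 was the single subunit lower in BoM, at -0.28 (SE 0.08, adjusted p = 0.016), and the other 7 were higher. The shCtrl level of CCT7 was 0.78 (SE 0.10, adjusted p = 6.7e-06) higher in BoM than in LM2, and its fall after WDR5 knockdown brought the BoM libraries to 358, 490.4 and 399.8 CPM, which overlaps the 477, 436 and 451 CPM of LM2 shCtrl.

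**Figure D5:**
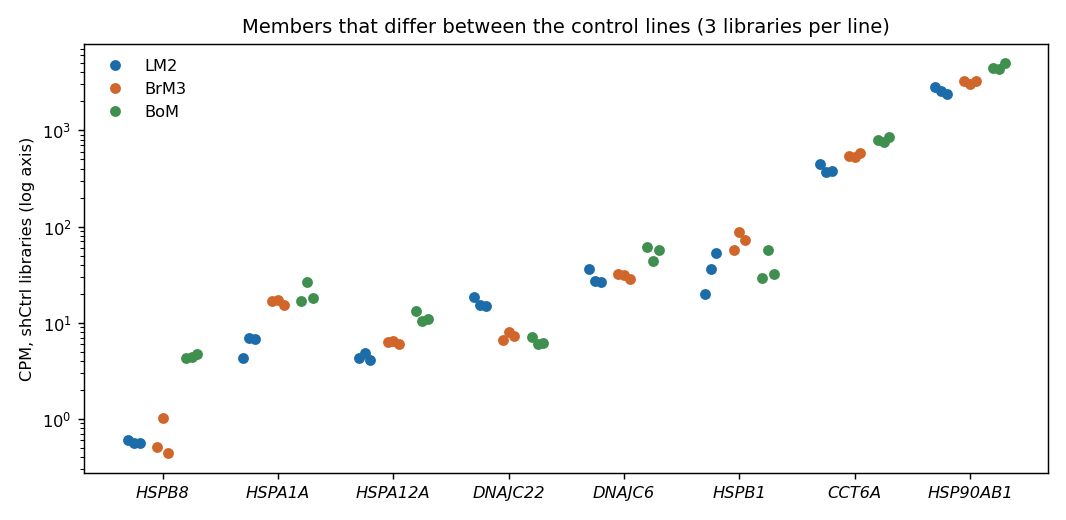
CPM (log axis) of 8 members in the shCtrl libraries of LM2 (blue), BrM3 (orange) and BoM (green), with 3 libraries per line. HSPB8, HSPA12A, CCT6A and HSP90AB1 are highest in BoM, DNAJC22 is highest in LM2, and HSPB1 is spread within each line.

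The 16 members that did not pass the filter were scarce in all 18 libraries. HSPB2, HSPB7 and DNAJB3 had 0 counts in each library, which allows a level of up to 0.0251 to 0.172 CPM depending on the library (3 counts, counting error only). HSPA1L and HSPA12B were the most abundant of the 16, reaching 2.91 and 2.03 CPM, and DNAJC28 reached 1.13 CPM. The strictly heat-inducible HSPA6, whose promoter holds the element printed above, did not exceed 0.437 CPM, and HSPA7, HSPB3, HSPB6, HSPB9, DNAJA4, DNAJB7, DNAJB8, DNAJB13 and DNAJC12 did not exceed 0.695 CPM.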

How the data were processed

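Total RNA was sequenced from 18 cultures as strand-specific poly(A) libraries with paired ends. Per the submitters' processing notes, base calls came from CASAVA 1.8.2, reads were aligned with STAR 2.7.0 to hg38, and the authors deposited raw read counts per gene together with DESeq2 results of their own. Those results hold log2 fold changes and p-values and were not used. The strand setting of the counting is not given in the sources used here, and the counts table used here has 0 spike-in rows, so the spike-in RNA added in proportion to cell number is not analysed here and total mRNA per cell was not compared.

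Groups follow the sample titles. The source field names another metastatic site than the title for most samples and was not used. Counts were fitted with edgeR 4.0.16 (R 4.3.3) in 1 quasi-likelihood model of 6 groups with TMM scaling and 12 residual degrees of freedom. Genes were kept when their highest normalised count exceeded 139.7, the threshold between 1 and 200 with the best Jaccard index between replicates (0.9698). P-values were adjusted by Benjamini-Hochberg over all 12160 genes, and the standard error is the log2 fold change divided by the root of the F statistic. The model was tested on simulated data. The members and lists were chosen with earlier results of these data known. Named members were the 8 TRiC subunits, those called in 1 direction in all 3 lines, the most abundant per length in each role, the smallest p in each difference of response, and the 3 largest called changes in each pair of control lines and in the mean of the lines. Other genes are named after their values were seen. Replicates of 1 group differed by more than sampling noise (chi-square per gene 5.12 to 90.1 over 18 pairs). Alternatives were DESeq2 1.42.0, its size factors (RLE), filterByExpr, no filter, the replicate number as a block, each line alone, a GC offset and leaving out each library.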

Additional observations from a re-analysis of the deposited data

How the results depend on the processing

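The number of members called in LM2, 10, became 6 in the fit of each line alone and 18 with the GC offset, and ranged from 5 to 11 over the fits that left out 1 library. In BrM3 (18 called) that range was 9 to 20. In BoM (17 called) it was 11 to 20, and each line alone gave 11. The cause was not tested, except that leaving out a library or fitting 1 line leaves fewer samples. The other leave-one-out ranges were 28 to 34 for the mean of the lines, and 25 to 32, 30 to 41 and 17 to 26 for the shCtrl comparisons of BrM3 with LM2, BoM with LM2 and BoM with BrM3. For the difference of response between BoM and LM2, 0 called by edgeR, DESeq2 and the GC offset each called 1.

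Direction changed in these cases, none of them called in the model as reported. With the GC offset HSPB1 became 0.0434 in LM2, 0.0489 in BrM3 and 0.0307 in the mean of the lines, HSPA4 in BoM became -0.0329 and HSPA1A in BrM3 0.032. DNAJC8 in BoM became 0.0063 with RLE scaling, 0.0059 with DESeq2, 0.0129 with filterByExpr and 0.004 with no filter.

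Leaving out 1 library at a time, the log2 fold change of HSPB1 ranged from -0.5284 to 0.323 in LM2, -0.3415 to 0.0201 in BrM3 and -0.6223 to 0.0724 in BoM. DNAJC8 ranged from -0.0251 to 0.0697 in LM2 and -0.0541 to 0.062 in BoM, HSPA5 from -0.0161 to 0.1343 in LM2, DNAJB1 from -0.0233 to 0.0941 in BoM, and HSPA4 from -0.0298 to 0.1194 in LM2 and -0.0336 to 0.1446 in BoM.

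Of the other single-gene values under another fit, 668 kept their direction and side of the threshold, 25 gained a call, 27 lost one and 9 changed sign. Same-numbered replicates correlated at -0.155 to 0.641 in their deviations over 9 pairs, 7 of them above 0.1, and 7 pairs correlated best with their own number. Not every pair was above 0.1 and no label ties equal numbers to 1 passage, so the model without the block was kept, although all 3 BoM pairs were (0.161 to 0.538). With the replicate block 12 members were called in LM2 (5 up, 7 down, where 3.85% and 8.02% of all genes were), 23 in BrM3 (11 and 12, 6.39% and 12.6%), 22 in BoM (11 and 11, 11.3% and 15%) and 35 in the mean of the lines (19 and 16, 22.2% and 24.8%), and the shCtrl comparisons gave 35, 44 and 29. Depth limits the 16 untested members and HSPA2 and HSPB8, which lie near the filter.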
